A study of Mus musculus with 7 samples.

Results

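RNA levels of 10 genes of MHC class I antigen presentation were followed through mouse cells at different stages and states of reprogramming. The genes were given by name as members of the pathway, with earlier results of these data known. They were H2-K1, H2-D1, B2m, Tap1, Tap2, Tapbp, Psmb8, Psmb9, Psme1 and Nlrc5. All 10 were found among the 29267 Ensembl genes of each deposited table, 1 gene identifier for each symbol.

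The study reprogrammed fibroblasts to pluripotency in 2 media and asked how the medium shapes the cells that result. There were 7 libraries, 1 for each of 7 groups, so no replicates. OG2 mouse embryonic fibroblasts (MEFs) carry a green fluorescent reporter driven by the promoter and distal enhancer of Oct4, and all 6 groups made from them had been infected with retroviruses that carry the reprogramming factors Oct4, Sox2, Klf4 and c-Myc. The mES-Oct4GFP+ and mES-Oct4GFP- cells were the fluorescent and non-fluorescent fractions sorted on day 15 from mES medium, which contains serum, LIF and vitamin C. The 5C-Oct4GFP+ and 5C-Oct4GFP- cells were the same fractions from 5C medium, which is chemically defined and holds bFGF, LIF and vitamin C without serum. These 4 groups were at passage 0. The 5C-Oct4GFP+ (naive) and 5C-Oct4GFP+ (primed) cells came from 5C-Oct4GFP+ colonies moved to naive or primed medium and kept for 20 passages, and the primed ones no longer fluoresced. R1 ESCs-primed are cells of the R1 mouse embryonic stem cell line, also at 20 passages. They were brought to the primed state on MEF feeder cells and then maintained on serum-coated plates. They are the only group without the reporter and the 4 factors. The sorted fractions are mixtures of cells defined only by the reporter, and each group is 1 culture of 1 origin as far as the labels tell.

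MHC class I molecules show peptides from inside a cell to cytotoxic T cells. A heavy chain (H2-K1 or H2-D1) pairs with the light chain beta-2 microglobulin (B2m) in the endoplasmic reticulum. The peptides are cut in the cytosol by the proteasome, whose catalytic subunits can be replaced by the inducible subunits Psmb8 and Psmb9, and whose activity is raised by the PA28 activator that contains Psme1. The transporter made of Tap1 and Tap2 pumps the peptides into the endoplasmic reticulum, where Tapbp (tapasin) holds the transporter and the empty heavy chain together. Nlrc5 acts in the nucleus as a transactivator of class I genes. Pluripotent cells are known for low levels of class I molecules, and fibroblasts carry them at the surface.

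Levels are given in TPM, the abundance that RSEM estimates per transcript length, which has a common total in all libraries and can be compared between genes. The libraries held between 6108252 and 11496615 estimated reads, and a single read added between 0.0950 and 0.181 TPM to a gene of median length. A ratio of 2 libraries is followed by its exact 95% interval (Clopper-Pearson), computed after rounding the estimated counts. These intervals, like the floor of 3 counts used for a library without reads, cover counting error only. The spread between cultures cannot be had from 1 library per group, and no test was possible. In bulk RNA, fewer cells that make a transcript and less of it per cell cannot be told apart.

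The fractions matched their names by some markers and not by others. Of 9 pluripotent markers, 5 were at least 2-fold higher with than without fluorescence in mES medium and 3 (Pou5f1, Fgf5 and Otx2) were lower. The shares of all genes were 17.9% and 28.8%. In 5C medium 6 of 9 were higher and none was lower, beside 8.45% and 22.6% of all genes. Nanog, a core pluripotency factor, stood at 697 TPM with and 17.1 TPM without fluorescence in mES medium, and at 253 and 120 TPM in the 5C fractions. Zfp42, a naive marker, was at 355 TPM in 5C-Oct4GFP+ (naive) and listed at 0 in 5C-Oct4GFP+ (primed) cells, and Fgf5, a primed marker, was at 0.09 and 175 TPM there. Pou5f1, which encodes Oct4, was highest in mES-Oct4GFP- cells, where retroviral and endogenous transcripts cannot be told apart. Sox2, another of the delivered factors, was higher without than with fluorescence, at 498 against 328 TPM in mES and 680 against 459 TPM in 5C medium. The 5C-Oct4GFP- library still held pluripotency transcripts and the primed libraries held fibroblast transcripts, as described further on.

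The promoters of the heavy chains and of B2m are printed first, because these genes had the widest absolute range among the members and share short elements. The sequences are RefSeq's on GRCm38.p6, on the strand of the gene and 5′ to 3′. Capitals mark, in order from the left, GGGATTCCC (the NF-κB site of the class I enhancer, not found in these exact letters in B2m) and the letters of an interferon-stimulated element (GAANNGAAA read on the other strand as TTTCACTTC, or GAAANNGAA in B2m). Next come TGACG (the core of the X2 box) and ATTGG (the Y box, CCAAT read on the other strand). H2-K1 and H2-D1 each hold a further match of ATTGG on the other strand, printed to its right in lower case as ccaat.
H2-K1, chr17:34000309-34000488, minus strand: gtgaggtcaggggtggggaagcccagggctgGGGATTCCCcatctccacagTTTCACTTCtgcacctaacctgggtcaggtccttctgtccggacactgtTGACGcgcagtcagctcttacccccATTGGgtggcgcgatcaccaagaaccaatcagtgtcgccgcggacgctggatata
H2-D1, chr17:35262893-35263072, plus strand: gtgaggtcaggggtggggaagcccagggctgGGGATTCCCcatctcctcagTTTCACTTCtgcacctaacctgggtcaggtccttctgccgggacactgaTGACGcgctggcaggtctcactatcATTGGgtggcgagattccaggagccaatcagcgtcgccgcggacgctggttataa
B2m, chr2:122147509-122147688, plus strand: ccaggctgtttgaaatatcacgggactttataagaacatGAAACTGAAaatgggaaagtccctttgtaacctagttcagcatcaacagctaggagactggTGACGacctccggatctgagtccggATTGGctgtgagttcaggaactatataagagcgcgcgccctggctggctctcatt

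RefSeq windows from 250 bases before to 50 after the start were at hand for 8 members (H2-K1, H2-D1, B2m, Tap1, Tapbp, Psmb8, Psmb9 and Psme1). Both strands were searched. GGGATTCCC was found in the windows of H2-K1 and H2-D1, and in those of 0.414% of 27025 genes. Other forms of the NF-κB site were not searched. ATTGG was in 6 of the 8, those of H2-K1, H2-D1, B2m, Tap1, Tapbp and Psmb9, against 41.1% of genes. GAAANNGAA was in B2m and Psme1, against 9.76% of genes, and the longer X2 letters TGACGTCA and TGACGCA were in none of the 8, against 2.03% and 2.42% of genes. The next letters were chosen after the sequences had been seen. GAANNGAAA was in H2-K1, H2-D1 and Psme1 (8.68% of genes), and its match in Psme1 overlaps that of GAAANNGAA. TGACG was in H2-K1, H2-D1, B2m, Tap1 and Psmb9 (23.05% of genes). TGACG followed after 20 bases by ATTGG on the same strand was found in H2-K1, H2-D1 and B2m, and in 27 genes of the whole table (0.0999%), among them H2-M3, another class I heavy chain gene. A match describes letters in a window, not a bound site.

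**Figure D1:**
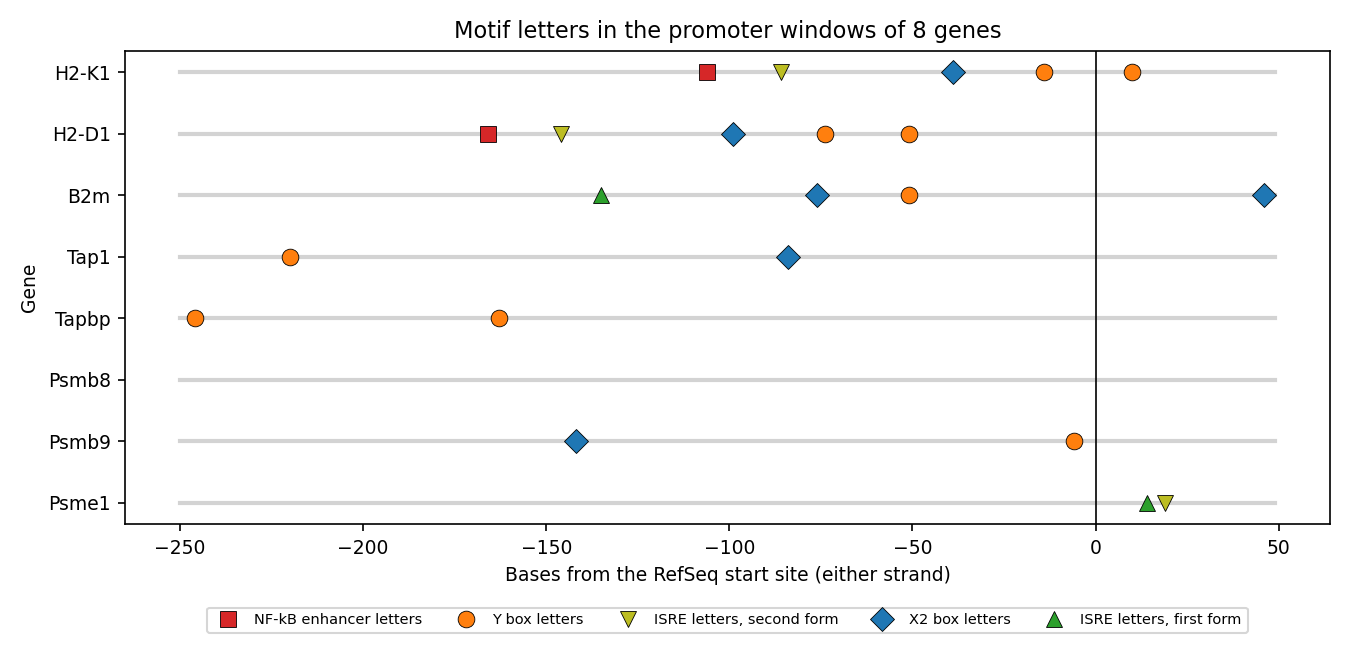
Positions of the searched letters in the RefSeq promoter windows of 8 genes, in bases from the start site (x axis, 0 is the start, grey bars are the windows). Squares are GGGATTCCC, upward triangles GAAANNGAA, downward triangles GAANNGAAA, diamonds TGACG and circles ATTGG. H2-K1, H2-D1 and B2m carry a diamond with a circle 20 bases after it, and Psmb8 carries none of the marks.

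Tap1 and Psmb9 start 226 bases apart and run in opposite directions, so that 1 stretch serves as the upstream region of both. It is printed to show the shared letters, which are TGACG and CCAAT.
Psmb9 to Tap1, chr17:34187306-34187580, GRCm38.p6, plus strand: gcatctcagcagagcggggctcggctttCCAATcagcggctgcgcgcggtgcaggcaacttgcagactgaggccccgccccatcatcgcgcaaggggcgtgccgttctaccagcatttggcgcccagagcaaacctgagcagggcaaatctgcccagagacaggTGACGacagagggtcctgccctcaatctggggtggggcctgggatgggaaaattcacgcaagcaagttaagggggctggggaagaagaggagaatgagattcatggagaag

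By their mean, class I presentation genes were lowest in mES-Oct4GFP+ and 5C-Oct4GFP+ (naive) cells and highest in the sorted non-fluorescent fractions. The mean log2(TPM + 1) of the 10 genes was 2.79 in 5C-Oct4GFP+ (naive) and 3.11 in mES-Oct4GFP+ cells. It was 4.25 in 5C-Oct4GFP+ cells, 4.42 in converted primed cells and 4.66 in R1 ESCs-primed. The mES-Oct4GFP- and 5C-Oct4GFP- cells had means of 5.34 and 5.41. The 5C-Oct4GFP+ cells thus lay between mES-Oct4GFP+ cells and the non-fluorescent fractions, near both primed libraries. For 8 members (all but H2-D1 and Nlrc5) both mES-Oct4GFP+ and 5C-Oct4GFP+ (naive) lay below the other 5 libraries, an order that 20.7% of 17733 genes showed. For 6 members (H2-K1, H2-D1, B2m, Tap1, Tap2 and Tapbp) both sorted non-fluorescent fractions lay above the other 5 libraries, an order that 22.7% of genes showed.

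**Figure D2:**
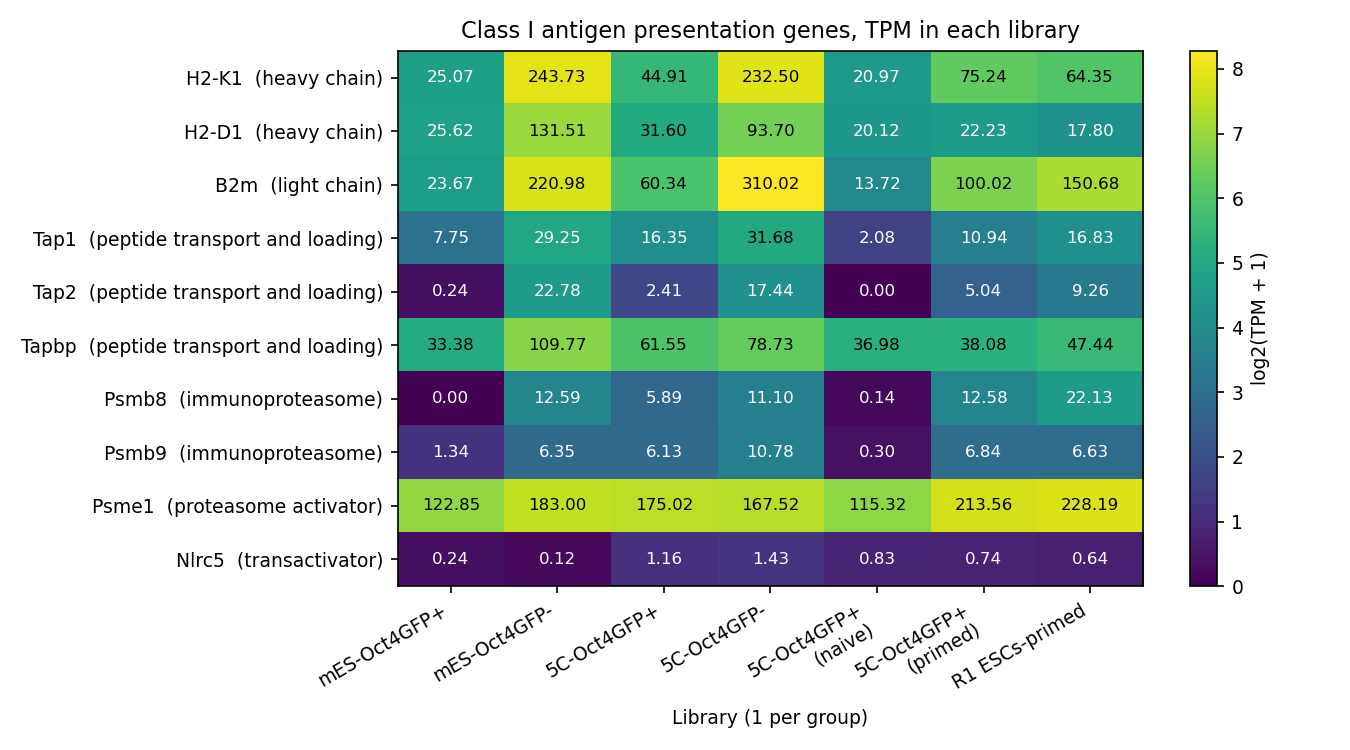
TPM of the 10 genes (rows, with their role) in each of the 7 libraries (columns), with colour giving log2(TPM + 1). The columns of the 2 sorted non-fluorescent fractions are the brightest for the heavy chains, B2m, Tap1, Tap2 and Tapbp. The mES-Oct4GFP+ and naive columns are the darkest for most rows, and Psme1 is bright in every column.

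H2-K1 (ENSMUSG00000061232, chromosome 17, 33996017 to 34000347 in GENCODE M21 on GRCm38) encodes the classical heavy chain K. It stood at 25.1 and 244 TPM in mES-Oct4GFP+ and mES-Oct4GFP- cells, 44.9 and 233 TPM in their 5C counterparts, 21.0 TPM after the naive and 75.2 TPM after the primed conversion, and 64.4 TPM in R1 ESCs-primed. The non-fluorescent fractions were far above all others, and neither they (ratio 0.954, 0.887 to 1.03) nor the mES-Oct4GFP+ and naive libraries (naive over mES-Oct4GFP+ 0.836, 0.639 to 1.09) differed from each other beyond counting error. The level was 9.72-fold (7.89 to 12.02) higher in mES-Oct4GFP- than in mES-Oct4GFP+ cells, and 5.18-fold (4.595 to 5.85) higher in 5C-Oct4GFP- than in 5C-Oct4GFP+ cells.

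H2-D1 (ENSMUSG00000073411, chromosome 17, 35262730 to 35267499) encodes the classical heavy chain D. Its levels were 31.6 and 93.7 TPM in 5C-Oct4GFP+ and 5C-Oct4GFP- cells, 25.6 and 132 TPM in the matching mES fractions, 20.1 TPM in naive cells, 22.2 TPM in converted primed cells and 17.8 TPM in R1 ESCs-primed. Unlike H2-K1 it was as low in the primed libraries as in the naive one. In the order of levels the steps from R1 ESCs-primed to naive, from naive to 5C-Oct4GFP+ (primed) and from there to mES-Oct4GFP+ all had intervals that included 1. The ratio of H2-K1 to H2-D1 in TPM was 0.979 in mES-Oct4GFP+ and 1.04 in naive cells, 1.42 in 5C-Oct4GFP+ cells, 1.85 and 2.48 in the non-fluorescent mES and 5C fractions, 3.38 in converted primed cells and 3.62 in R1 ESCs-primed. Words of 50 bases that also occur in transcripts of other genes made up 9.63% of the H2-K1 and 12.8% of the H2-D1 transcript sequence, with each other and with genes of the H2-Q and H2-T series among the partners. The division of reads between these genes by RSEM is therefore less certain than for B2m, which shares none. Heavy chain genes also vary between mouse strains, and the strains of these cells are not given in the sources used here.

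B2m (ENSMUSG00000060802, chromosome 2, 122147686 to 122153083), the light chain, spread more widely. It was at 13.7 TPM in naive cells, 23.7 and 60.3 TPM in the fluorescent fractions of mES and 5C medium, 221 and 310.0 TPM in the non-fluorescent ones, 100.02 TPM in converted primed cells and 151 TPM in R1 ESCs-primed. The highest level was 22.6 times the lowest, and all 6 steps between neighbours in the order of levels were larger than counting error. Among genes of at least 1 TPM, B2m lay at the 43.4th percentile in naive and at the 97.0th in 5C-Oct4GFP- cells. The summed heavy chains stood to B2m as 2.99 to 1 (2.22 to 4.11) in naive and 2.14 (1.61 to 2.88) in mES-Oct4GFP+ cells. This ratio was 1.70 (1.57 to 1.84) in mES-Oct4GFP- cells, 1.27 (1.10 to 1.47) in the fluorescent 5C fraction and 1.052 (0.976 to 1.13) in 5C-Oct4GFP- cells. It was 0.975 (0.874 to 1.09) in converted primed cells and 0.545 (0.479 to 0.620) in R1 ESCs-primed, the only library with an interval wholly below 1. The heavy chains thus outweighed the light chain most in naive and mES-Oct4GFP+ cells, where both were low.

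Tap1 (ENSMUSG00000037321, chromosome 17, 34187553 to 34197225) encodes the first chain of the peptide transporter. It was at 7.75 and 29.3 TPM in mES-Oct4GFP+ and mES-Oct4GFP- cells, 16.4 and 31.7 TPM in their 5C counterparts, 2.08 TPM after the naive and 10.9 TPM after the primed conversion, and 16.8 TPM in R1 ESCs-primed. The naive library was apart at the bottom, 0.268 times (0.162 to 0.443) the mES-Oct4GFP+ level. Neither 5C-Oct4GFP+ and R1 ESCs-primed nor the non-fluorescent fractions differed from each other beyond counting error.

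Tap2 (ENSMUSG00000024339, chromosome 17, 34203527 to 34216321), the second chain, was the scarcer. It was at 0.24 TPM in mES-Oct4GFP+ cells, from 1.95 estimated reads, and at 22.8 TPM in mES-Oct4GFP- cells. The 5C fractions had 2.41 TPM with and 17.4 TPM without fluorescence, converted primed cells 5.04 TPM and R1 ESCs-primed 9.26 TPM. In 5C-Oct4GFP+ (naive) cells it was listed at 0, where 3 counts would give 0.472 TPM. Transcripts of both chains of the transporter were thus present in 5 libraries, while in mES-Oct4GFP+ and naive cells Tap1 was read and Tap2 was at or under the floor. Tap1 and Tap2 share 0.442% and 0.655% of their sequence words with each other.

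Tapbp (ENSMUSG00000024308, chromosome 17, 33915899 to 33929292) varied less. Its levels were 61.6 and 78.7 TPM in 5C-Oct4GFP+ and 5C-Oct4GFP- cells, 33.4 and 110 TPM in the matching mES fractions, 37.0 TPM in naive cells, 38.1 TPM in converted primed cells and 47.4 TPM in R1 ESCs-primed. The highest was 3.29 times the lowest, and 5C-Oct4GFP+ cells were above both primed libraries. The mES-Oct4GFP+, naive and 5C-Oct4GFP+ (primed) levels followed each other with intervals that included 1.

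Psmb8 (ENSMUSG00000024338, chromosome 17, 34197721 to 34201454) encodes the inducible subunit that takes the place of Psmb5. It was listed at 0 in mES-Oct4GFP+ cells, where 3 counts would give 0.654 TPM, and rested on 1 read (0.14 TPM) in naive cells. It was at 12.6 TPM in mES-Oct4GFP- cells, at 5.89 and 11.1 TPM in the fluorescent and non-fluorescent 5C fractions, at 12.6 TPM in converted primed cells and at 22.1 TPM in R1 ESCs-primed. R1 ESCs-primed were the highest, above mES-Oct4GFP- cells by 1.76-fold (1.24 to 2.52).

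Psmb9 (ENSMUSG00000096727, chromosome 17, 34181987 to 34187764) takes the place of Psmb6. Its levels were 0.30 TPM in naive cells, 1.34 and 6.13 TPM in the fluorescent fractions of mES and 5C medium, 6.35 and 10.8 TPM in the non-fluorescent ones, 6.84 TPM in converted primed cells and 6.63 TPM in R1 ESCs-primed. Between 5C-Oct4GFP+, mES-Oct4GFP- and both primed libraries no step was larger than counting error. The mES-Oct4GFP+ and naive libraries were the lowest here too, with 5.68 reads and 1 read.

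As a share of the TPM of a replaceable pair, Psmb8 over Psmb8 plus Psmb5 was 0% in mES-Oct4GFP+ (3 counts would be 0.179%) and 0.0380% (0.000936 to 0.206) in naive cells. It was 1.64% (1.17 to 2.25) in 5C-Oct4GFP+ cells, 2.61% (2.09 to 3.25) in converted primed cells, 4.22% (3.09 to 5.62) and 5.11% (3.89 to 6.59) in the non-fluorescent 5C and mES fractions and 5.18% (4.13 to 6.42) in R1 ESCs-primed. Psmb9 made up 0.272% and 0.0497% of its pair in mES-Oct4GFP+ and naive cells, and between 1.03% and 2.92% in the other 5 libraries. For Psmb10, the inducible subunit that replaces Psmb7, the shares were 1.94% and 2.18% in these libraries, between 6.68% and 7.67% in 4 others, and 11.2% in R1 ESCs-primed. The constitutive subunits thus made up most of each pair in every library. Psmb5 itself lay between 234 TPM in mES-Oct4GFP- and 469 TPM in 5C-Oct4GFP+ (primed) cells.

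**Figure D3:**
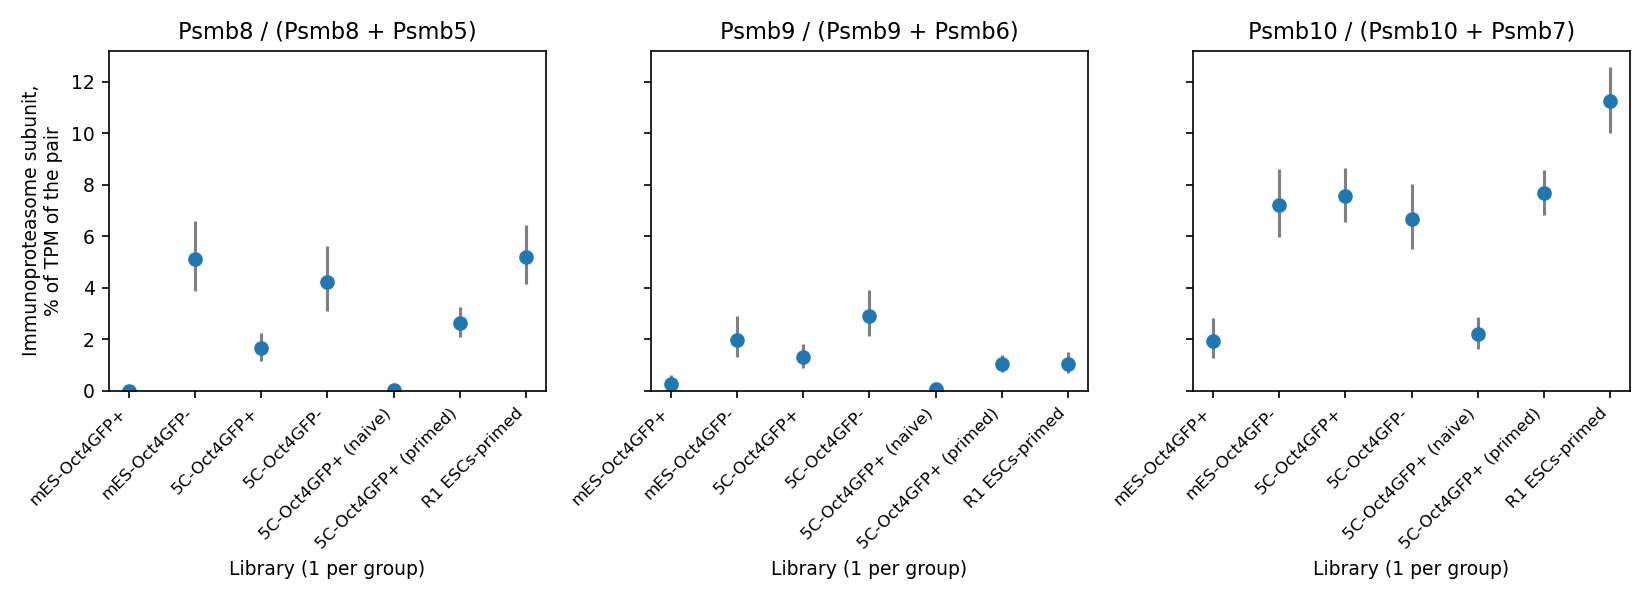
Share of the inducible subunit in the TPM of its pair (y axis, percent) in each library (x axis), for Psmb8, Psmb9 and Psmb10. Points are single libraries and lines are exact 95% intervals for counting error. In all 3 panels mES-Oct4GFP+ and naive cells are the lowest, and R1 ESCs-primed are the highest for Psmb8 and Psmb10.

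Psme1 (ENSMUSG00000022216, chromosome 14, 55578123 to 55581529), a subunit of the proteasome activator, was abundant everywhere. It stood at 123 and 183 TPM in mES-Oct4GFP+ and mES-Oct4GFP- cells, 175 and 168 TPM in their 5C counterparts, 115 TPM after the naive and 214 TPM after the primed conversion, and 228 TPM in R1 ESCs-primed. The highest level was 1.98 times the lowest. The order of libraries was still that of Psmb8 at both ends, with mES-Oct4GFP+ and naive cells the lowest and R1 ESCs-primed the highest.

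Nlrc5 (ENSMUSG00000074151, chromosome 8, 94434356 to 94527272) was close to the limit of detection. Its levels were 1.16 and 1.43 TPM in 5C-Oct4GFP+ and 5C-Oct4GFP- cells, 0.24 and 0.12 TPM in the matching mES fractions, 0.83 TPM in naive cells, 0.74 TPM in converted primed cells and 0.64 TPM in R1 ESCs-primed, from 3 to 42 reads. Its order of libraries was unlike that of the other members. The mES-Oct4GFP- library, where H2-K1, H2-D1, Tap2 and Tapbp were highest, had the lowest Nlrc5 level. All 6 steps between neighbours in its order had intervals that included 1.

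The fluorescent fraction was compared with the non-fluorescent one in each medium. Changes were counted at 2-fold or more on the log2(TPM + 1) scale, which understates the change of low genes, among genes of at least 1 TPM in either library. In mES medium 8 of the 10 members (all but Psme1 and Nlrc5) were at least 2-fold lower in mES-Oct4GFP+ than in mES-Oct4GFP- cells, where 28.8% of 16294 genes were, and none was higher against 17.9% of genes. Nlrc5 was below the minimum of 1 TPM in both. The median log2 difference was -2.05 over the members and -0.15 over all genes tested. B2m was 9.34-fold (7.20 to 12.3), H2-D1 5.13-fold (4.30 to 6.19), Tap1 3.77-fold (2.77 to 5.32), Tapbp 3.29-fold (2.88 to 3.78) and Psme1 1.49-fold (1.31 to 1.695) higher in mES-Oct4GFP- cells. Psmb9 was 4.74-fold higher (1.85 to 13.5). Psmb8 was 19.2-fold higher against the floor of 3 counts, with a lower interval limit of 15.1. Tap2 was 94.9-fold higher with an interval from 25.8 to 783 because it rests on 1.95 reads in mES-Oct4GFP+ cells.

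The same comparison was made in 5C medium. H2-K1, H2-D1, B2m and Tap2 were at least 2-fold lower in 5C-Oct4GFP+ than in 5C-Oct4GFP- cells, 4 of 10 where 22.6% of 15675 genes were, and none was higher against 8.45% of genes. On the log2 scale the median difference was -0.86 over the members and -0.25 over all genes. B2m was 5.14-fold (4.49 to 5.89), H2-D1 2.97-fold (2.58 to 3.41) and Tap2 7.24-fold (4.93 to 10.8) higher in 5C-Oct4GFP- cells. Tap1 (1.94, 1.60 to 2.33), Psmb8 (1.88, 1.20 to 2.98), Psmb9 (1.76, 1.11 to 2.90) and Tapbp (1.28, 1.16 to 1.41) were higher by less. Psme1 (0.957, 0.861 to 1.06) and Nlrc5 (1.23, 0.750 to 2.05) had ratios with intervals that included 1.

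The question of the medium was asked within each fraction. Among fluorescent cells, B2m, Tap2, Psmb8 and Psmb9 were at least 2-fold higher in the 5C than in the mES fraction, 4 of 10 where 13.7% of 15196 genes were, and none was lower against 13.5%. All 10 members had ratios above 1 with intervals above 1, the least being H2-D1 at 1.23 (1.005 to 1.53). These intervals cover counting error only, and the share of all genes with such intervals was not counted. Over the members the median log2 difference was 0.93, and over all genes -0.06. H2-K1 was 1.79-fold (1.42 to 2.26), B2m 2.55-fold (1.93 to 3.42), Tap1 2.11-fold (1.54 to 3.002), Tapbp 1.84-fold (1.61 to 2.13) and Psme1 1.42-fold (1.26 to 1.61) higher. Psmb9 was 4.57-fold (1.77 to 12.6), Nlrc5 4.83-fold (1.73 to 19.3) and Tap2 10.04-fold (2.56 to 85.7) higher, all from few reads in mES-Oct4GFP+ cells. Psmb8, without reads in mES-Oct4GFP+ cells, was 9.0-fold higher against the floor of 3 counts, with a lower interval limit of 6.97. 

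Among non-fluorescent cells the members' median lay near that of all genes. Only Nlrc5 was at least 2-fold higher in the 5C than in the mES fraction, 1 of 10 where 9.68% of 15859 genes were, and no member was lower against 10.1%. Its ratio of 11.9 (3.87 to 61.1) rests on 42 reads against 3, and it was not counted when a TPM of 5 was required or FPKM was used. The median log2 difference of the members was -0.10, against 0.03 for all genes. B2m was 1.40-fold (1.28 to 1.54) and Psmb9 1.70-fold (1.02 to 2.82) higher in 5C-Oct4GFP- cells. H2-D1 (0.712, 0.645 to 0.786), Tapbp (0.717, 0.655 to 0.786) and Tap2 (0.766, 0.614 to 0.947) were lower there, and intervals for H2-K1, Tap1 (1.08, 0.911 to 1.29), Psmb8 (0.882, 0.583 to 1.33) and Psme1 (0.915, 0.818 to 1.02) included 1.

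**Figure D4:**
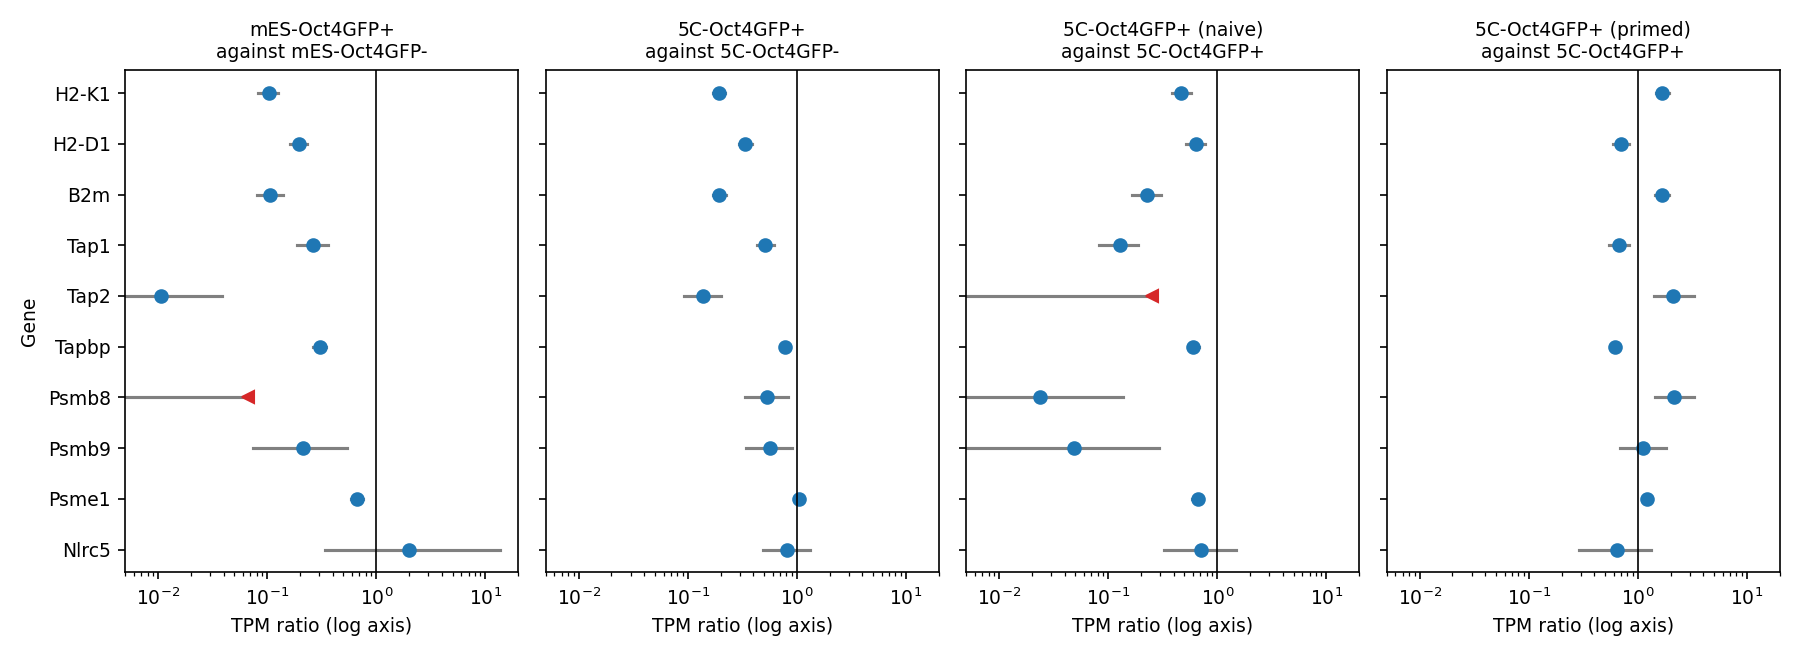
Ratio of TPM (x axis, log scale) for each gene (y axis) in 4 comparisons, with exact 95% intervals for counting error as grey lines and 1 as the vertical line. Points are ratios, red triangles mark the upper bound where the first library had no reads, and grey lines that meet the left edge go on beyond it. In the fluorescent against non-fluorescent panel of mES medium 9 genes are left of the line, in that of 5C medium the points are closer to it, naive cells are left of it for all 10 genes, and primed cells scatter around it.

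After 5C-Oct4GFP+ cells were moved to naive medium, every member had a lower level, for Nlrc5 within counting error. The naive cells were at 20 passages and the 5C-Oct4GFP+ cells at passage 0. Medium and passages therefore cannot be told apart. H2-K1, B2m, Tap1, Tap2, Psmb8 and Psmb9 were at least 2-fold lower in 5C-Oct4GFP+ (naive) cells, 6 of 10 where 17.5% of 14863 genes were, and none was higher against 10% of genes. The log2 differences had a median of -1.42 over the members and -0.10 over all genes. In 5C-Oct4GFP+ cells B2m was 4.398-fold (3.25 to 6.05), Tap1 7.86-fold (5.30 to 12.1), H2-K1 2.14-fold (1.75 to 2.63), Tapbp 1.66-fold (1.48 to 1.87), H2-D1 1.57-fold (1.29 to 1.92) and Psme1 1.52-fold (1.35 to 1.71) higher than in naive cells. Tap2, without reads in naive cells, was 5.11-fold higher against the floor of 3 counts, with a lower interval limit of 3.93. Psmb8 and Psmb9 rested on 1 read each in naive cells, with ratios of 42.1 (7.31 to 1753) and 20.4 (3.40 to 828). Nlrc5 had a ratio of 1.40 (0.680 to 3.11).

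After the same cells were moved to primed medium, differences went in both directions. The converted primed cells were also at 20 passages, so medium and passages cannot be told apart here either. On the log2(TPM + 1) scale no member reached 2-fold in either direction in 5C-Oct4GFP+ (primed) against 5C-Oct4GFP+ cells, where 16.1% of 15067 genes were lower and 13.7% higher. Tap2 and Psmb8, whose ratios of TPM are above 2, miss that limit because of the pseudocount of 1, and with a pseudocount of 0.1 these 2 members counted as higher. The median log2 difference was 0.21 over the members and 0.06 over all genes. H2-K1 (1.68, 1.47 to 1.91), B2m (1.66, 1.43 to 1.93), Tap2 (2.09, 1.39 to 3.24), Psmb8 (2.14, 1.44 to 3.24) and Psme1 (1.22, 1.11 to 1.34) were higher in primed cells. H2-D1 (0.703, 0.593 to 0.836), Tap1 (0.669, 0.543 to 0.825) and Tapbp (0.619, 0.555 to 0.688) were lower. Psmb9 (1.12, 0.688 to 1.83) and Nlrc5 (0.638, 0.287 to 1.31) had intervals that included 1.

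Primed cells of the 2 origins were also compared. With the pseudocount of 1, no member reached 2-fold in 5C-Oct4GFP+ (primed) against R1 ESCs-primed, and of 14600 genes 5.09% were lower and 2.3% higher. The median log2 difference was -0.20 over the members and -0.03 over all genes. B2m (0.664, 0.583 to 0.755), Tap1 (0.650, 0.516 to 0.818), Tap2 (0.544, 0.398 to 0.750), Psmb8 (0.568, 0.413 to 0.785) and Tapbp (0.803, 0.705 to 0.916) were lower in the converted cells. H2-K1 (1.17, 1.03 to 1.33) and H2-D1 (1.25, 1.014 to 1.55) were higher, and Psmb9 (1.03, 0.632 to 1.73), Psme1 (0.936, 0.849 to 1.03) and Nlrc5 (1.16, 0.410 to 3.52) had intervals that included 1. These 7 comparisons share libraries, so a low or high library enters more than 1 of them.

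The members' patterns were set against each other over the 7 libraries, as a description from points that share depth and processing. Pearson's r of log2(TPM + 1) between a member and the mean of the other 9 was 0.99 for B2m, 0.98 for Tap2, 0.94 for H2-K1, 0.93 for Tap1, 0.91 for Psmb9, 0.84 for Psmb8, 0.80 for Tapbp, 0.72 for Psme1, 0.64 for H2-D1 and 0.08 for Nlrc5. B2m was thus most like the rest and Nlrc5 least. Of 13483 genes outside the members with at least 5 TPM in some library, those most like the members' mean were Adcy6, App, Tank, Akt1, 1700037H04Rik, Elac1, Col4a1, Sh3bgrl, Slc25a37 and Bicra, with r between 0.997 and 0.990. App, for example, went from 2.49 TPM in naive to 308 TPM in mES-Oct4GFP- cells.

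The members also share a place in the genome. H2-K1, H2-D1, Tap1, Tap2, Tapbp, Psmb8 and Psmb9 lie on chromosome 17 between 33915899 and 35267499, which holds 100 other genes of the tables. Of these neighbours, 25 of 77 tested (32.5%) were at least 2-fold lower in mES-Oct4GFP+ than in mES-Oct4GFP- cells, and 12 of 71 (16.9%) in 5C-Oct4GFP+ than in 5C-Oct4GFP- cells. In naive against 5C-Oct4GFP+ cells 15 of 67 (22.4%) were lower. In 5C-Oct4GFP+ against mES-Oct4GFP+ cells 9 of 68 (13.2%) were higher. Over all genes the same 4 shares were 28.8%, 22.6%, 17.5% and 13.7%. B2m, Psme1 and Nlrc5 lie on other chromosomes.

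Other genes of the pathway were taken as fixed lists. Among 7 further class I pathway genes, Psmb10 and Erap1, which trims peptides in the endoplasmic reticulum, were at least 2-fold lower in mES-Oct4GFP+ than in mES-Oct4GFP- cells, and again in naive than in 5C-Oct4GFP+ cells, 2 of 7 where 28.8% and 17.5% of all genes were. Erap1 was at 2.97, 13.4, 4.22, 17.8, 1.13, 10.3 and 13.7 TPM in mES-Oct4GFP+, mES-Oct4GFP-, 5C-Oct4GFP+, 5C-Oct4GFP-, naive, primed and R1 ESCs-primed cells. The general chaperones of the list were abundant throughout, with Calr between 537 and 1316 TPM, Canx between 407 and 538 TPM and Pdia3 between 343 and 705 TPM. The list's median log2 difference was -0.52 for mES-Oct4GFP+ against mES-Oct4GFP-, 0.14 for 5C-Oct4GFP+ against 5C-Oct4GFP-, 0.17 for 5C-Oct4GFP+ against mES-Oct4GFP+ and -0.02 for naive against 5C-Oct4GFP+ cells. Of the 4 constitutive partners (Psmb5, Psmb6, Psmb7 and Psme3) none was 2-fold lower or higher in any of the 7 comparisons.

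Of 14 other class I and class I-like chains found, 6 were at least 2-fold lower and 2 higher in mES-Oct4GFP+ than in mES-Oct4GFP- cells, beside 28.8% and 17.9% of all genes. Mr1, which presents vitamin metabolites, was listed at 0 against 6.44 TPM, and H2-M3, which binds formylated peptides, was at 0.66 against 7.12 TPM. H2-M5 went the other way from the members. It was at 91.6 TPM in naive cells, 91.1 and 33.7 TPM in the fluorescent fractions of mES and 5C medium, 3.89 and 4.25 TPM in the non-fluorescent ones, 1.44 TPM in converted primed cells and 1.65 TPM in R1 ESCs-primed. Its high libraries were the ones where H2-K1 and B2m were low. The list's median log2 difference was -0.66 for mES-Oct4GFP+ against mES-Oct4GFP- and -0.40 for 5C-Oct4GFP+ against 5C-Oct4GFP- cells.

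Of 12 regulators of class I promoters, 4 were at least 2-fold lower in mES-Oct4GFP+ than in mES-Oct4GFP- cells, among them Irf2, Rela and Nfkb1. Nfyb and Nfyc were higher, 2 of 12, where 28.8% of all genes were lower and 17.9% higher. Irf2, an interferon regulatory factor, was at 0.12 and 30.1 TPM in mES-Oct4GFP+ and mES-Oct4GFP- cells, 4.50 and 19.2 TPM in their 5C counterparts, 0.18 TPM after the naive and 2.18 TPM after the primed conversion, and 2.70 TPM in R1 ESCs-primed. Nfkb1, a subunit of NF-κB, was at 11.6 TPM in mES-Oct4GFP+ and 7.52 TPM in naive cells and between 36.9 and 54.6 TPM in the other 5. Both were the lowest in the libraries where Tap2 and Psmb8 were near 0, below the other 5, an order that 20.7% of 17733 genes showed. Of the 12 regulators only Rela and Creb1 shared this order with them. The same holds for Ifngr1, the ligand-binding chain of the interferon-gamma receptor, at 1.77 TPM in mES-Oct4GFP+ and 1.66 TPM in naive cells against 5.07 to 29.9 TPM in the others. Of the 9 interferon receptor and signalling genes only Ifnar1 and Jak1 shared it with Ifngr1. Irf1 and Irf9 did not follow this order. Irf1 was at 47.95 TPM in mES-Oct4GFP+ and 40.5 TPM in naive cells, within a range of 29.5 to 53.3 TPM. Irf9 was at 35.1 and 33.3 TPM there, at 12.3 TPM in 5C-Oct4GFP+ cells, and at 8.05 and 9.89 TPM in converted primed cells and R1 ESCs-primed. The medians of the regulators were -0.40 for mES-Oct4GFP+ against mES-Oct4GFP- and -0.11 for naive against 5C-Oct4GFP+ cells. Over all genes these medians were -0.15 and -0.10. In naive against 5C-Oct4GFP+ cells 2 of 12 regulators (Irf2 and Nfkb1) were at least 2-fold lower, beside 17.5% of all genes. Of 9 interferon receptor and signalling genes, 6 were at least 2-fold lower in mES-Oct4GFP+ than in mES-Oct4GFP- cells and 5 in 5C-Oct4GFP+ than in 5C-Oct4GFP- cells, beside 28.8% and 22.6% of all genes and with medians of -1.29 and -1.12. In 5C-Oct4GFP+ against mES-Oct4GFP+ cells 1 gene (Irf9) was lower and 1 (Ifngr1) higher, beside 13.5% and 13.7% of all genes. In naive against 5C-Oct4GFP+ cells 2 were lower (Ifngr1 and Ifnar2) and Irf9 was higher, beside 17.5% and 10% of all genes. The part of the regulators and interferon genes in the members' levels was not tested.

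Fibroblast markers moved with the members in some comparisons and not in others. All 8 fibroblast markers were read in every library, none at 0. Their summed level was 532 and 1071 TPM in 5C-Oct4GFP+ and 5C-Oct4GFP- cells, 632 and 1156 TPM in the matching mES fractions, 441 TPM in naive cells, 264 TPM in converted primed cells and 564 TPM in R1 ESCs-primed, most of it Fn1. Col1a1, a chain of type I collagen, was at 4.05 and 160 TPM in the fluorescent and non-fluorescent mES fractions, 1.5 and 44.96 TPM in those of 5C medium, 1.63 TPM in naive cells, 13.3 TPM in converted primed cells and 40.5 TPM in R1 ESCs-primed. In mES medium 7 of the 8 and in 5C medium 6 of the 8 were at least 2-fold lower in the fluorescent fraction (28.8% and 22.6% of all genes), beside the class I members, and their part in the members' difference was not tested. In naive against 5C-Oct4GFP+ cells, where 6 of 10 members were lower, 1 of 8 fibroblast markers (Thy1) was, beside 17.5% of all genes. Their median log2 difference was 0.26. In the non-fluorescent fraction of 5C against mES medium 5 of 8 were lower and 1 (Thy1) higher, beside 10.1% and 9.68% of all genes. The members' median there was -0.10. In 5C-Oct4GFP+ against mES-Oct4GFP+ cells 2 of 8 fibroblast markers were lower and 1 (Thy1) higher, beside 13.5% and 13.7% of all genes. Col1a1 was lower where B2m was higher. In 5C-Oct4GFP+ (primed) against 5C-Oct4GFP+ cells 6 of 8 were higher and 1 (Fn1) lower, beside 13.7% and 16.1% of all genes. Against R1 ESCs-primed 5 of 8 were lower, beside 5.09% of all genes.

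Leukocytes, which are rich in class I molecules, left few reads. The 8 leukocyte markers summed to between 0.39 and 8.08 TPM, and Ptprc, carried by all leukocytes, was at most 0.80 TPM. Cd3e was at 5.73 TPM in mES-Oct4GFP+ and 4.97 TPM in naive cells, the libraries lowest in class I, and Csf1r at 5.33 TPM in mES-Oct4GFP- cells. The 4 endothelial markers summed to between 2.74 and 48.4 TPM, with Tek at 40.4 TPM in 5C-Oct4GFP- and Vwf at 25.5 TPM in 5C-Oct4GFP+ cells. In the pluripotent list, 5 of 9 markers were at least 2-fold higher without fluorescence in 5C than in mES medium and 1 (Pou5f1) was lower. The shares of all genes were 9.68% and 10.1%, and the members' median there was -0.10. The part of these cell types in the members' levels was not tested.

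**Figure D5:**
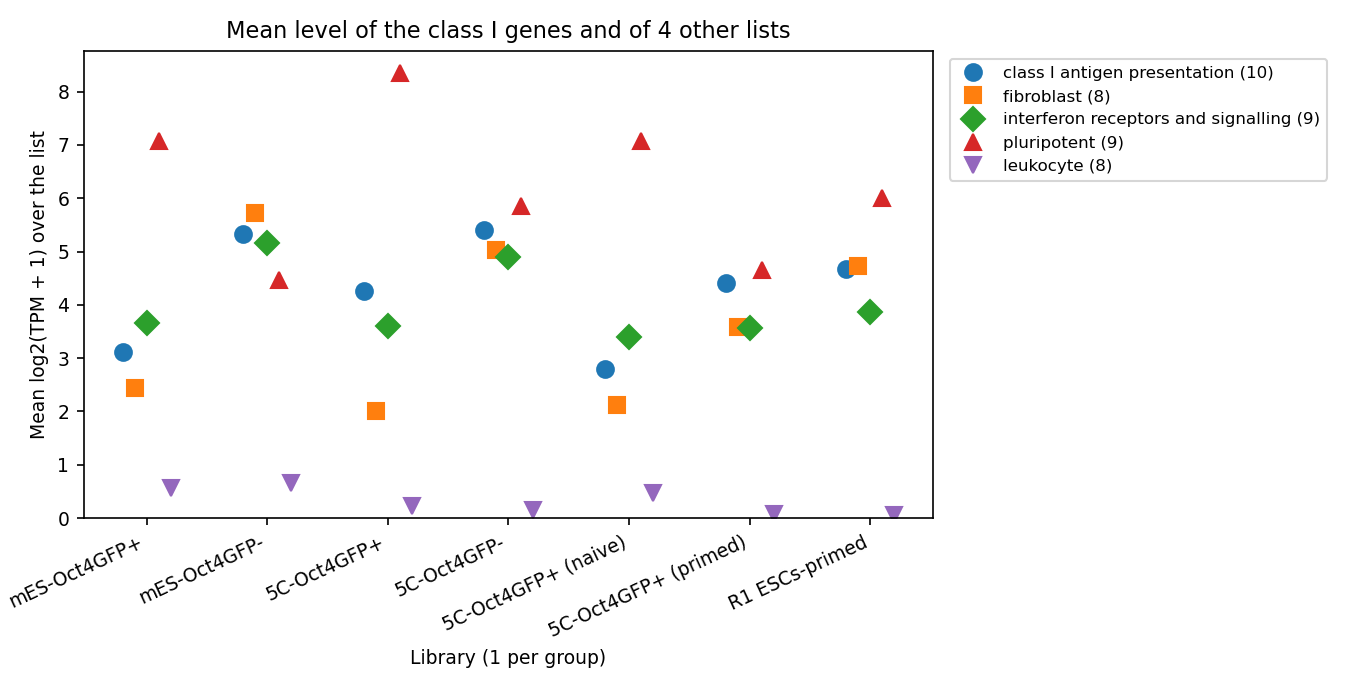
Mean log2(TPM + 1) (y axis) over the 10 class I genes and over the fibroblast, interferon signalling, pluripotent and leukocyte lists, with gene numbers in the legend, in each library (x axis). Each point is 1 library's mean over the list. Class I genes and fibroblast markers are both high in the non-fluorescent fractions, and in 5C-Oct4GFP+ cells the class I mean is 4.25 while the fibroblast mean is 2.0, the lowest of the 7 libraries.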

How the data were processed

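RNA of 7 libraries, 1 per group, was measured by RNA-Seq. Per the labels, the submitters' processing notes name Bowtie, RSEM and the build mm10, with versions not given in the sources used here. TRIzol-extracted RNA had been made into TruSeq libraries and sequenced on a MiSeq. The deposited expected counts are the authors' RSEM estimates of reads per gene and are not normalized. The deposited TPM values were made by the authors with RSEM from counts and effective lengths. The deposited FPKM values are also RSEM's and served as an alternative. Effective lengths, also deposited, gave the TPM value of a count.

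Groups came from the sample titles. TPM was the main value, as in the study's methods, with differences on log2(TPM + 1), a minimum of 1 TPM in either library and 2-fold as a change. Ratios have exact 95% Clopper-Pearson intervals. With 1 library per group no test was run. Symbols were matched by Ensembl identifier, coordinates are GENCODE M21 on GRCm38, and the promoters come from RefSeq. H2-T10 and H2-Bl of the list of class I chains were not matched. The members and lists were chosen with earlier results of these data known. All 10 members are named. From a list, 2 to 4 genes of large difference are named. The 10 genes most like the members had the highest r. Cases named outside this rule (Calr, Canx, Pdia3, Ifngr1, Ifnar1, Jak1, Nfkb1, Creb1, Irf1, Irf9 and single markers) were chosen after their values were seen. The interval script was tested on simulated data. Alternatives were a pseudocount of 0.1, no minimum or 5 TPM, FPKM and median-ratio rescaling. Scripts ran under Python 3.11.15 with scipy 1.17.1, pandas 2.3.3 and numpy 2.4.6, and figures were drawn by matplotlib 3.10.9. The own values of 1 gene of the other lists are not reported here.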

Additional observations from a re-analysis of the deposited data

Results flagged for a closer look

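For 3 members the medium went with opposite directions in the sorted fractions. The ratio of H2-D1 in 5C over mES medium was 0.712 in non-fluorescent and 1.23 in fluorescent cells. For Tapbp it was 0.717 and 1.84, and for Tap2 it was 0.766 and 10.04, the last resting on 1.95 reads in mES-Oct4GFP+ cells. All of these ratios had counting intervals on 1 side of 1, but each fraction is 1 library, and the difference between the fractions was not tested. The share of all genes with such opposite directions was not counted.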

How the results depend on the processing

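No member's difference changed sign under any alternative run. Counts of members stayed within 1.5 times in 67 of 70 cases. Medians lay between the medians of the members' lower and upper limits (log2 of the ratio) in 41 of 42, and single differences within their own limits in 193 of 210, with a limit moved to the value itself where the pseudocount had placed it outside. With FPKM, a scale with smaller values in these tables, the median for naive against 5C-Oct4GFP+ cells was -1.09 in place of -1.42. Nlrc5, the 1 member counted as higher without fluorescence in 5C than in mES medium, was lost with FPKM or a minimum of 5 TPM, leaving 0. A pseudocount of 0.1 made 2 members 2-fold higher in 5C-Oct4GFP+ (primed) than in 5C-Oct4GFP+ cells, where a pseudocount of 1 gave 0. Median-ratio rescaling shifted all genes by 0.16 (log2) in 5C-Oct4GFP+ against 5C-Oct4GFP- cells and by less than that in the other comparisons. Leaving out Nlrc5, a setting chosen once the data had been seen, moved none of the medians beyond those limits. No paired analysis was possible because each group has 1 library. Depth limits Tap2, Psmb8 and Psmb9 in mES-Oct4GFP+ and naive cells and Nlrc5 in all libraries, where ratios rest on few reads.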

Other observations

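The 7 class II genes listed, which serve presentation to helper T cells, were low in these cells apart from H2-Eb1 in naive and mES-Oct4GFP+ cells. Ciita, the class II transactivator, was at most 0.15 TPM. H2-Eb1, a class II beta chain, was at 13.3 and 0.82 TPM in mES-Oct4GFP+ and mES-Oct4GFP- cells, 3.15 and 0.84 TPM in their 5C counterparts, 29.2 TPM after the naive and 0.86 TPM after the primed conversion, and 1.64 TPM in R1 ESCs-primed. It was highest in naive and mES-Oct4GFP+ cells, where H2-K1 and B2m were lowest, while H2-D1 was also low in the primed libraries. In naive cells H2-Eb1 stood above H2-K1 (21.0 TPM), H2-D1 (20.1 TPM) and B2m (13.7 TPM). The summed level of the 7 class II genes lay between 7.68 and 34.9 TPM.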
